A study of Homo sapiens with 6 samples.

Results

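The 10 genes described here encode ligands and surface enzymes with which a tumour cell restrains or alerts T cells, natural killer (NK) cells and macrophages: CD274, PDCD1LG2, CD276, NT5E, LGALS9, CD47, PVR, NECTIN2, ULBP2 and MICA. They were chosen by name, as every probe set of the array whose annotation gives 1 of these symbols and no other, which yielded 30 probe sets of the 49293 on the array that are not controls and 10 of 18132 genes. RNA came from A375, an established human melanoma cell line, in 3 arrays of cells that received a lentiviral short hairpin RNA against UBE2S (also spelled UEB2S in the labels) and 3 arrays of control cells of the line. The hairpin's target, UBE2S, extends ubiquitin chains for the anaphase-promoting complex. The sources used here do not give what the control cells received, the sequence or number of hairpins, or the time after transduction. The labels call the replicates biological but name no separate cultures, so p-values measure the spread between these samples, which may be partly technical.

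Immune checkpoints are receptors that dampen a lymphocyte when a partner cell shows the matching ligand. PD-1 on T cells binds CD274 (PD-L1) and PDCD1LG2 (PD-L2), TIGIT on T and NK cells binds PVR and NECTIN2, and SIRPA on macrophages binds CD47. NK cells also carry activating receptors, among them NKG2D, which recognises MICA and ULBP2 on stressed or transformed cells, and CD226, which shares PVR and NECTIN2 with TIGIT. The surface protein, on which these receptors act, was not measured here.

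The deposited values are log2 expression with the median over the 6 arrays removed from each probe set, so 0 is the middle of the arrays and no gene's level can be set against another's. All changes are knockdown minus control on the log2 scale, and a gene's value is the mean of its probe sets. A change was called at a Benjamini-Hochberg adjusted p under 0.05 over all genes (or all probe sets) in limma. UBE2S itself lay between -1.13 and -1.01 in knockdown and between 1.01 and 1.06 in control arrays. Array medians lay between -0.009 and 0.004. Knockdown arrays gave a hybridization spike-in signal 0.168 higher and a poly-A spike-in signal 0.098 higher, and the 3' to 5' difference of the ACTB control probe sets was 0.191 higher. Centring the arrays on these spike-ins moves the median change of all genes from -0.0038 to -0.17 and -0.10, so changes below are relative to the array-wide level, and those that depend on it are named. The part of the ACTB difference in the results was not tested. In a bulk extract, fewer cells that make a transcript and less of it per cell cannot be told apart.

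Transcripts of 5 of the 10 ligands rose and those of the other 5 did not pass the test. NT5E rose most, 1.52-fold, followed by NECTIN2 (1.45-fold), ULBP2 (1.25-fold), CD276 (1.17-fold) and MICA (1.11-fold). CD274, PDCD1LG2, LGALS9, CD47 and PVR lay between -0.11 and 0.01. The median change of the 10 was 0.082, beside -0.0038 for all genes. Of all 18132 genes 40.1% were called, 21.4% higher and 18.6% lower, so a share of 50% among 10 genes is near the background. Values of 8 of the 10 did not overlap between the groups, where 50% of all genes did not. With the arrays centred on hybridization spike-ins the split among the 10 was 3 higher and 4 lower in place of 5 and 0, and with poly-A spike-ins it was 4 and 3, while over all genes the split moved from 3888 higher and 3378 lower to 1764 and 9196, and to 2486 and 6297.

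**Figure D1:**
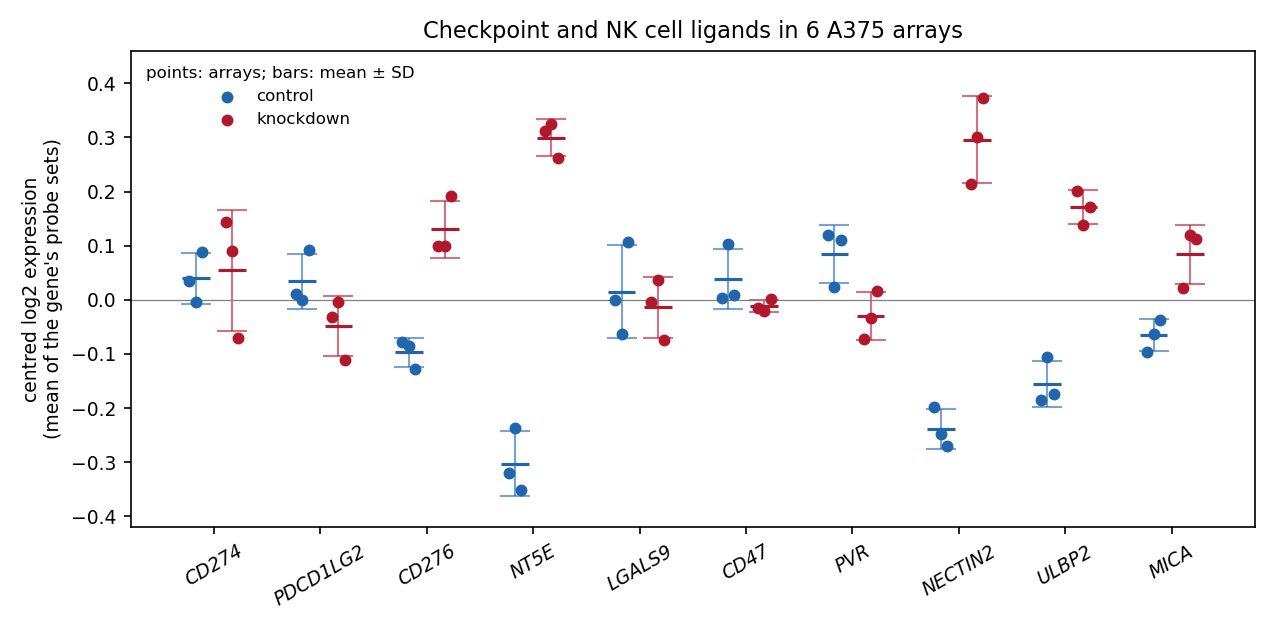
Centred log2 expression of the 10 ligands (vertical axis, mean of each gene's probe sets) in the 3 control (blue) and 3 knockdown (red) arrays, with the mean and SD of each group. NT5E, NECTIN2, ULBP2, CD276 and MICA stand higher in all 3 knockdown arrays than in any control array, whereas the groups overlap in CD274 and LGALS9 and come close to touching in PDCD1LG2, CD47 and PVR.

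Among the ligands of the activating receptor NKG2D, ULBP2 and MICA rose while their relatives MICB and ULBP3 fell. ULBP2, a surface protein held by a lipid anchor, had values of 0.20, 0.14 and 0.17 in the knockdown arrays and of -0.19, -0.11 and -0.17 in the control arrays. The knockdown arrays were all higher, with a change of 0.33 (SE 0.04, adjusted p = 2.79e-04 in limma). Its 3 probe sets differed widely. The probe set 11726552_x_at rose by 0.85 (SE 0.04), from -0.40 ± 0.01 in control to 0.45 ± 0.04 in knockdown arrays (SD, n = 3 each), whereas 11762919_at and 11762920_x_at stood at 0.04 and 0.09 and did not pass. Those last 2 are of the lowest of 3 signal classes that can be read from the rounding of the values, a class that also held 13 of the array's 23 background controls. Another 4 probe sets, whose annotation names ULBP2 together with its near copies RAET1L and, for 3 of them, RAET1G, and which the selection therefore left out, rose by 0.55 to 0.70. With these 4 included the change of ULBP2 was 0.48. With probe sets free of the array's suffixes for shared or cross-hybridizing probes, 1 was left for ULBP2 (0.04, not passed). The probe set that rose by 0.85 is of a kind that the array marks with _x as open to cross-hybridization, so its rise is uncertain as a value of ULBP2 alone.

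MICA, a stress-induced relative of the HLA class I proteins, had values of 0.02, 0.12 and 0.11 in knockdown and of -0.10, -0.06 and -0.04 in control arrays. The groups did not overlap, but the gap was 0.06. The change was 0.15 (SE 0.04, adjusted p = 0.0202 in limma). It was carried by the probe set 11738887_s_at (0.29, SE 0.06), while 11738888_x_at (0.07) and 11763217_x_at (0.09) did not pass. All 3 carry the array's suffixes for shared or cross-hybridizing probes, so the rise is uncertain as a value of MICA alone. The alternative with unshared probe sets kept these 3, since MICA has no other. The call was lost without knockdown replicate 2 (0.13), knockdown replicate 3 (0.14) or control replicate 1 (0.13), and the change was -0.018 with hybridization and 0.05 with poly-A spike-in centring. MICB, which binds the same receptor, lay between -0.23 and -0.14 in knockdown and between 0.20 and 0.26 in control arrays, a change of -0.40 (SE 0.04, adjusted p = 1.03e-04 in limma). ULBP3 fell (-0.36, SE 0.06, adjusted p = 0.00142). ULBP1 (-0.12), RAET1E (0.21), RAET1G (0.09) and RAET1L (-0.21) did not pass, the first 2 of them with adjusted p-values of 0.0536 and 0.0521. These 4 are named because they bind NKG2D, a choice made after their values were seen. The change of MICA minus that of ULBP2 was -0.18, and -0.56 with the largest-variance probe set of each. The difference of their centred values was -0.09 ± 0.08 in knockdown and 0.09 ± 0.05 in control arrays (SD, n = 3 each), with an exact two-sided permutation p of 0.1, the smallest that 3 arrays against 3 allow (0.1 adjusted over the 3 pairs of ligands compared). Without control replicate 3 the change of MICA minus that of ULBP2 was -0.15, with an exact permutation p of 0.2.

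In the list of 19 measured NK cell ligands beyond the 10, 3 rose and 4 fell, with a median of -0.083, and with hybridization spike-ins 3 rose and 12 fell. CADM1, an adhesion protein that engages the receptor CRTAM on NK and T cells, rose by 1.31 (SE 0.04). CD58, the ligand of CD2, rose by 0.39 (SE 0.04). With hybridization spike-in centring CADM1 and CD58 kept their calls (1.14 and 0.23), and MICB and ULBP3 theirs (-0.57 and -0.53).

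PVR and NECTIN2, nectin-like and nectin adhesion proteins that share the receptors TIGIT and CD226, moved apart. NECTIN2 had values of 0.21, 0.30 and 0.37 in knockdown and of -0.20, -0.25 and -0.27 in control arrays. Every knockdown array was higher, with a gap of 0.41 between the groups. Its change was 0.53 (SE 0.05, adjusted p = 6.40e-05 in limma), and both probe sets rose, by 0.27 (SE 0.05, not called with hybridization spike-ins) and 0.80 (SE 0.09). PVR had values of -0.07, -0.03 and 0.02 in knockdown and of 0.12, 0.02 and 0.11 in control arrays. The highest knockdown and the lowest control array were 0.008 apart. Its change of -0.11 (SE 0.04, 95% interval -0.21 to -0.01) did not pass over all genes (adjusted p = 0.0688 in limma). The centred value of PVR minus that of NECTIN2 was -0.33 ± 0.04 in knockdown and 0.32 ± 0.05 in control arrays (SD, n = 3 each). The change of PVR minus that of NECTIN2 was thus -0.65 (exact two-sided permutation p = 0.1, the smallest the design allows, and 0.1 adjusted over 3 pairs). With the largest-variance probe set of each it was -1.06.

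The mean of PVR joined probe sets that changed in opposite directions. The probe set 11719177_x_at, of a kind that the array marks as open to cross-hybridization, rose by 0.22 (SE 0.05, adjusted p = 0.0104). The probe sets 11719178_a_at and 11719179_a_at fell (-0.26 and -0.24), and 11737539_a_at stood at -0.17 with an adjusted p of 0.0636. Without the first, PVR fell by 0.22 (adjusted p = 0.00649 in limma), and it was also called lower with the largest-variance probe set (-0.26), array weights (-0.13), both spike-in centrings (-0.28 and -0.21) and without control replicate 2 (-0.14). The rise of 11719177_x_at was not called with either spike-in centring (0.05 and 0.12), and the fall of 11719178_a_at was not called with the replicate block or without knockdown replicate 1 or 3 or control replicate 1 or 3 (-0.27 to -0.19).

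Other nectins and a receptor of the family changed as well. NECTIN3 rose by 0.30 (SE 0.05) and NECTIN4 fell (-0.46, SE 0.06), while NECTIN1 stood at 0.10 (adjusted p = 0.160). CD96, a receptor for PVR that is known from T and NK cells, lay between 0.57 and 0.59 in knockdown and between -0.59 and -0.56 in control arrays, a rise of 1.15 (SE 0.03, adjusted p = 3.48e-07 in limma). CD226 (0.04, low signal class) and TIGIT (0.01) did not pass. NECTIN1, NECTIN3, NECTIN4, CD226 and TIGIT are named for their place in the family, chosen after their values were seen.

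**Figure D2:**
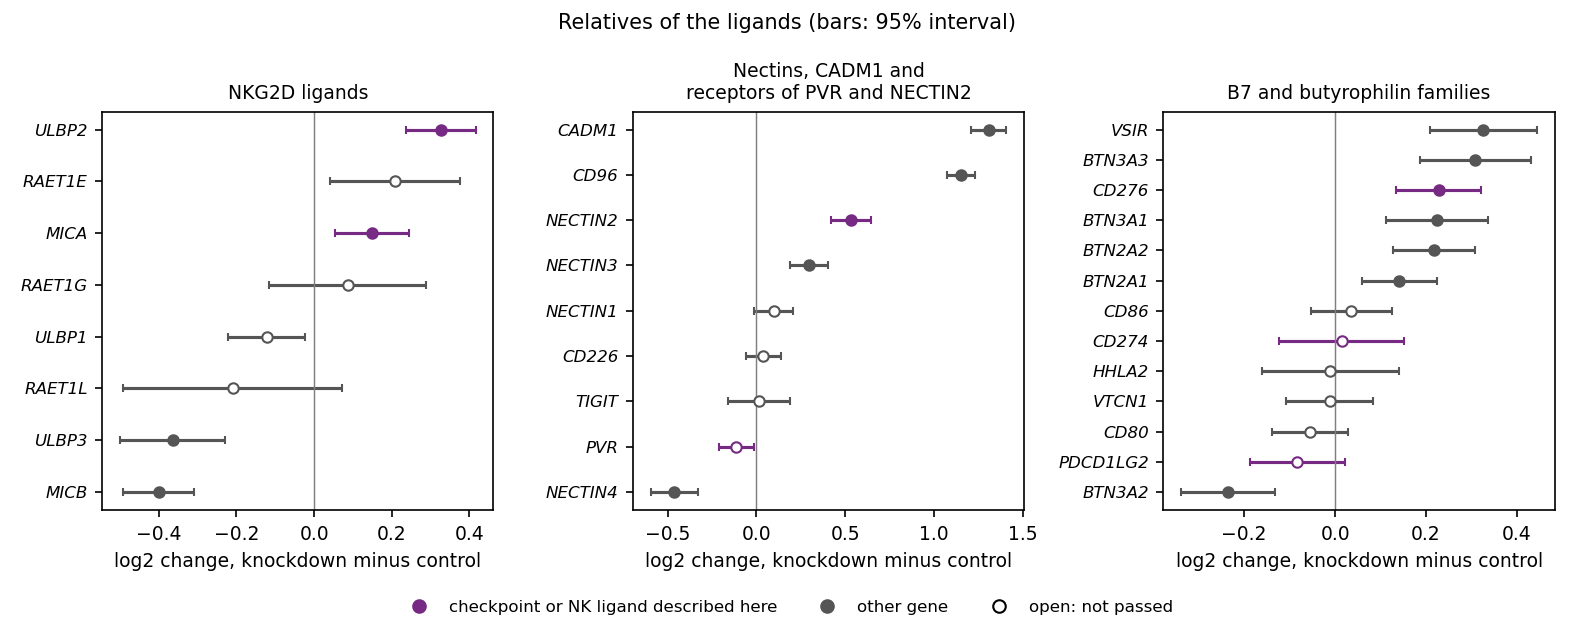
Log2 change (horizontal axis, knockdown minus control) with its 95% interval for relatives of the ligands in 3 families, purple for the ligands described here, grey for other genes and open where the test was not passed. ULBP2 and MICA lie to the right of 0 and ULBP3 and MICB to the left, NECTIN2 lies apart from PVR and NECTIN4, and CD274 and PDCD1LG2 lie near 0.

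No change of the ligands of PD-1 was called, although interferon-stimulated genes were strongly raised in the same arrays. CD274 is classically induced by interferon. It had values of 0.14, 0.09 and -0.07 in knockdown and of 0.03, -0.004 and 0.09 in control arrays. The groups overlapped, and knockdown replicate 3 was the lowest of the 6 arrays. The change was 0.01 (SE 0.06, adjusted p = 0.876 in limma), with a 95% interval from -0.12 to 0.15. Its 4 probe sets stood at 0.25, -0.17, -0.03 and 0.006, the last of the low and the others of the middle signal class, and none passed. The first of these, 11728316_at, varied most, with 0.29, 0.49 and -0.03 in the knockdown arrays against -0.01, -0.01 and 0.01 in the control arrays. PDCD1LG2 stood at -0.08 (SE 0.04, 95% interval -0.19 to 0.02, adjusted p = 0.190), and all its 4 probe sets were of the lowest signal class. It was called lower with either spike-in centring (-0.25 and -0.18). The centred value of CD274 minus that of PDCD1LG2 was 0.10 ± 0.07 in knockdown and 0.006 ± 0.02 in control arrays (SD, n = 3 each), a difference of 0.10 (exact two-sided permutation p = 0.1, and 0.1 adjusted over 3 pairs). It was 0.40 with the largest-variance probe set of each and 0.06 without knockdown replicate 1, and the exact permutation p was 0.2 without any 1 of the control arrays.

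Of 15 measured genes of a core list of interferon-stimulated genes, 13 rose and 1 fell, with a median of 1.20. The split was 13 and 2 with hybridization spike-ins, and 11 and 1 of 13 without the low signal class. IFIT1, which blocks translation of viral RNA, rose by 3.89 (SE 0.10) and MX1, an antiviral GTPase, by 3.77 (SE 0.06). The only probe set of IFIT1, like that of ISG15, was of the low signal class, which also held 13 of the 23 background controls. A class is given to a probe set as a whole and not to each array. It therefore does not show that IFIT1 was near background in the knockdown arrays, which stood 3.89 above the control arrays. The chemokine CXCL10 fell (-0.72, SE 0.07). The upper end of the interval of CD274, 0.15, lies below the change of each of the 13.

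The sequences before the start sites of CD274 and IFIT1 are shown because both hold the interferon-stimulated response element (ISRE) while only the second transcript was called. They are RefSeq's 250 bases upstream of the start on GRCh38.p14, chr9:5450292-5450541 and chr10:89392373-89392622, both on the plus strand, written 5' to 3' in lower case. Capitals mark matches, on either strand, to the ISRE core (GAAA, any 2 bases, GAAA), the gamma-activated site TTCNNNGAA, the AP-1 site TGAGTCA, the cAMP response element TGACGTCA and the GC box GGGCGG.
CD274: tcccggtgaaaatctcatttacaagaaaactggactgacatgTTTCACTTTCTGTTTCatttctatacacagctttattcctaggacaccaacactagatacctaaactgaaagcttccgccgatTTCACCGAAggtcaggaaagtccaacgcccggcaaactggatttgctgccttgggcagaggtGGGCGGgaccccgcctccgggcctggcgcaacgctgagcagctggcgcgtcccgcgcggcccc
IFIT1: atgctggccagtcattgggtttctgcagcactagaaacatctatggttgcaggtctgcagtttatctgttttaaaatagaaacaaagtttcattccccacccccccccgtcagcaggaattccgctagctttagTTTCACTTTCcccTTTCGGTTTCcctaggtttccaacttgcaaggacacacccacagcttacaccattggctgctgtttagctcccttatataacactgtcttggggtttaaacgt
CD274 had ISRE matches at bases -208 to -199 and -202 to -193 from the start, which overlap each other, and a gamma-activated site at -125 to -117, which overlaps neither. IFIT1 had ISRE matches at -116 to -107 and -103 to -94. The ISRE core was found in 3.02% of 35116 such windows and the gamma-activated site in 6.57%. Windows were matched by symbol for 9 of the 10 ligands, all but PDCD1LG2, and among these 9 CD274 was the only one with either motif. Of 12 matched genes of the interferon core list, 10 held the ISRE core and 4 the gamma-activated site. These counts are per gene, over all windows of its symbol, whereas the percentages are per window. A match is a description of the letters and does not show that a factor binds.

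Genes that control CD274 changed in both directions. Of 29 measured, 9 rose and 10 fell, with a median of -0.014, and with hybridization spike-ins 5 rose and 18 fell. IRF9, the DNA-binding partner of STAT proteins at the ISRE, rose by 2.03 (SE 0.07) and the AP-1 subunit JUN by 0.72 (SE 0.04). CMTM6, which keeps the PD-L1 protein at the cell surface, lay between 0.34 and 0.37 in knockdown and between -0.35 and -0.33 in control arrays, a rise of 0.70 (SE 0.03, adjusted p = 2.52e-06 in limma). MYC fell (-1.11, SE 0.07), as did SPOP (-0.47, SE 0.03), the substrate receptor of a ubiquitin ligase that marks PD-L1 for destruction. IRF1, through which interferon-gamma raises CD274, lay between -0.19 and -0.09 in knockdown and between 0.10 and 0.13 in control arrays, a fall of 0.24 on the log2 scale (SE 0.04, adjusted p = 0.00198). The kinases JAK1 and JAK2 rose by 0.38 and 0.29, of which JAK2 was not called with hybridization spike-in centring (0.12), and the interferon-gamma receptor chain IFNGR1 fell (-0.30). CMTM6, IRF1, JAK1, JAK2 and IFNGR1 were named after their values were seen.

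**Figure D3:**
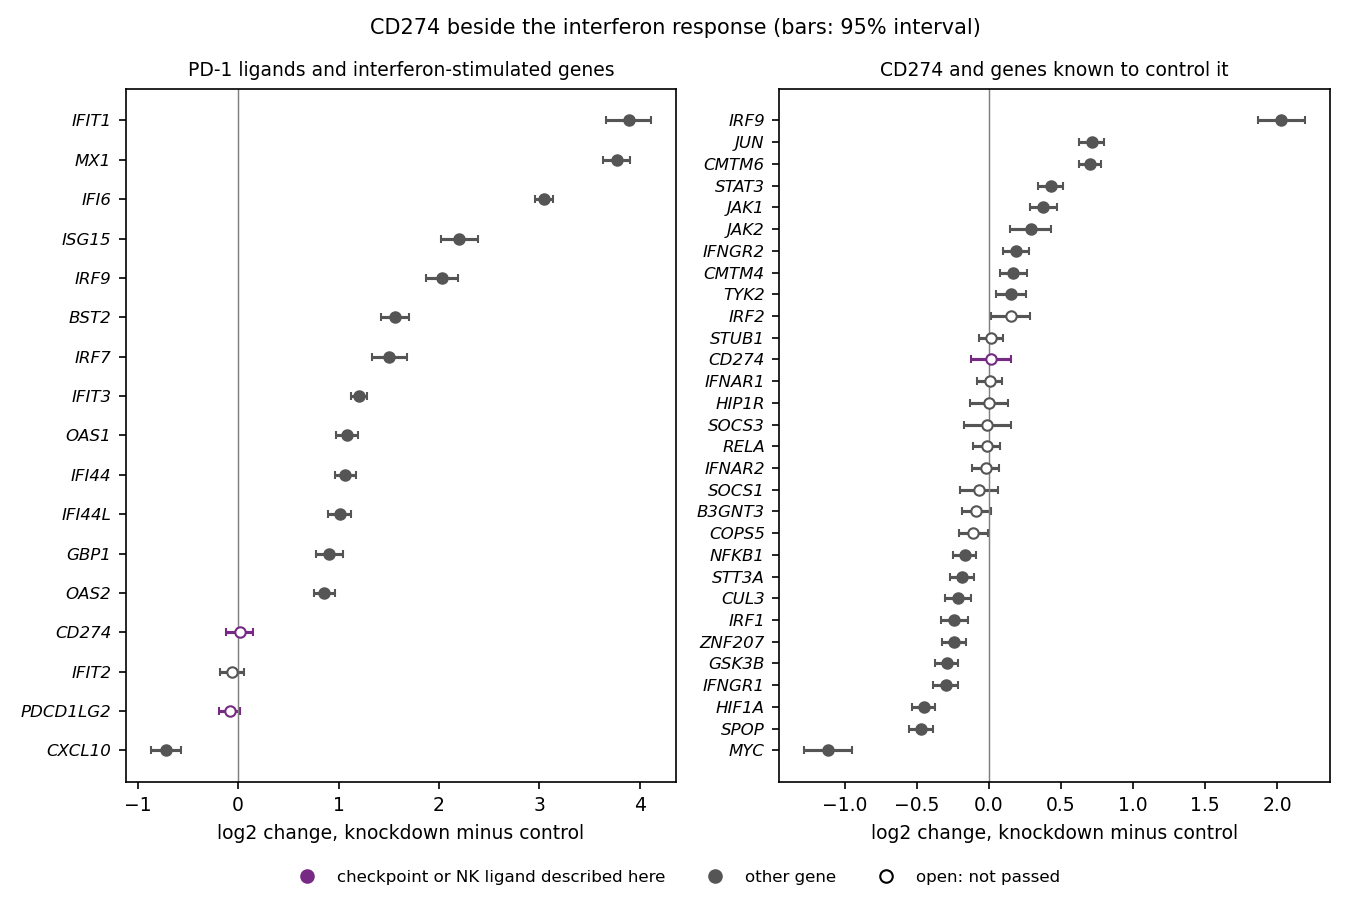
Log2 change (horizontal axis, knockdown minus control) with its 95% interval for CD274 and PDCD1LG2 beside interferon-stimulated genes (left) and for CD274 beside genes known to control it (right), with open symbols where the test was not passed. CD274 lies at 0.01 while 13 interferon-stimulated genes lie at 0.86 (OAS2) or above, and its control genes spread from -1.11 (MYC) to 2.03 (IRF9).

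CD276 (B7-H3), a B7 family member that is abundant on many tumours, rose. Its values were 0.10, 0.10 and 0.19 in knockdown and -0.08, -0.09 and -0.13 in control arrays, with no overlap. The change was 0.23 (SE 0.04, adjusted p = 0.00243 in limma), and both probe sets rose (0.27 and 0.19). With hybridization spike-in centring it stood at 0.06 and was not called. Of 32 other checkpoint and costimulatory ligands 9 rose and 5 fell, with a median of 0.022, and with hybridization spike-ins 4 rose and 15 fell. The largest rises were those of CD200, which restrains myeloid cells through its receptor (0.55, SE 0.05), and of CD58, named above. The largest falls were those of HMGB1, a chromatin protein and extracellular alarm signal (-1.08, SE 0.03), and of CD24, a ligand of the inhibitory receptor Siglec-10 (-0.99, SE 0.04).

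CD47, the signal that holds off phagocytosis, had a mean change near 0 that joined 3 probe sets with called changes in opposite directions. At the level of the gene its values were -0.01, -0.02 and 0.002 in knockdown and 0.003, 0.10 and 0.009 in control arrays, a change of -0.05 (SE 0.04, 95% interval -0.14 to 0.04, adjusted p = 0.385 in limma). It was called lower with either spike-in centring (-0.22 and -0.15). The probe set 11743348_a_at rose: its values were 0.19, 0.18 and 0.25 in knockdown and -0.26, -0.18 and -0.23 in control arrays, a change of 0.43 (SE 0.05, adjusted p = 2.29e-04). The probe set 11743347_a_at fell: its values were -0.16, -0.13 and -0.18 in knockdown and 0.13, 0.33 and 0.19 in control arrays, a change of -0.38 (SE 0.06, adjusted p = 0.00164). The third, 11735329_a_at, fell too (-0.20, SE 0.05, adjusted p = 0.00935). None of the 3 overlapped between the groups, and each kept its call in the 13 alternatives run on probe sets, both spike-in centrings and each array left out among them. The array's _a suffix marks probe sets that read several transcripts of 1 gene, and the sources used here do not say which transcripts of CD47 each one reads. A called rise together with a called fall was found in 2 of the 10 ligands, CD47 and PVR, and in 3.49% of the 11734 genes on the array with at least 2 probe sets (5.19% of the 6995 with at least 3). CD276, LGALS9 and NECTIN2 have 2 probe sets each and so lie outside the second share.

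**Figure D4:**
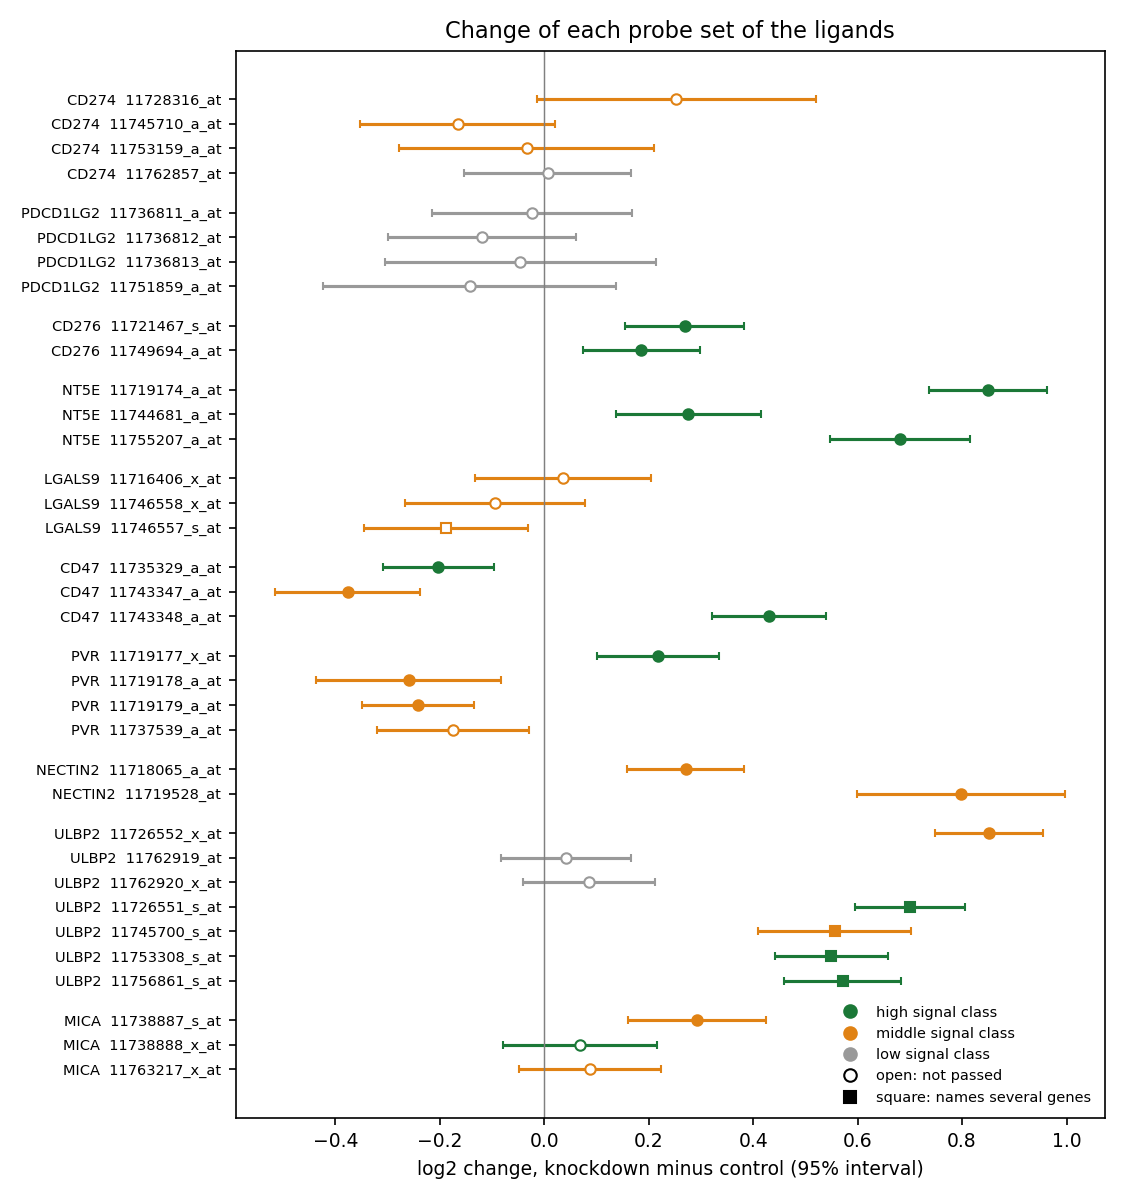
Log2 change (horizontal axis, knockdown minus control) with its 95% interval for each of the 30 probe sets of the ligands (circles) and 5 more that name a ligand together with a near copy (squares), coloured by signal class and open where the test was not passed. All 3 probe sets of NT5E lie to the right of 0, those of CD47 and PVR lie on both sides, and the 7 of the low class lie near 0.

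Over the 30 probe sets 11 rose and 4 fell, where 36.9% of all 49293 were called, 19.5% higher and 17.4% lower. The groups did not overlap in 16 of the 30, against 48.2% of all. With hybridization spike-ins 5 of the 30 rose and 8 fell, and with poly-A spike-ins 9 and 6. Over all 49293 probe sets the split moved too, from 9628 higher and 8561 lower to 4786 and 20889, and to 6425 and 14490. By signal class, 8 of 9 were called in the high class, 7 of 14 in the middle class and 0 of 7 in the low class of limma's probe set fit, where all 7 had an unadjusted p above 0.05. The share of all probe sets called in each class was not counted, so this order is not read as a trait of the ligands.

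Partners of CD47 were part of a list of 12, of which 4 rose and 1 fell (median 0.018), or 2 and 5 with hybridization spike-ins. QPCT, a relative of the enzyme QPCTL that modifies the end of CD47 bound by SIRPA, rose by 0.82 (SE 0.05), while QPCTL itself stood at 0.11 (adjusted p = 0.104). The thrombospondins, secreted proteins of which THBS1 binds CD47, split, with THBS2 up by 1.36 (SE 0.07) and THBS1 lower (-0.58, SE 0.04). LGALS9 (galectin-9), a secreted lectin that binds the receptor TIM-3, stood at -0.03 (SE 0.05, 95% interval -0.15 to 0.09, adjusted p = 0.719 in limma). Its values overlapped, from -0.07 to 0.04 in knockdown and from -0.06 to 0.11 in control arrays. Both probe sets of LGALS9 carry the _x suffix for cross-hybridization, so the value is uncertain as one of LGALS9 alone. A further probe set that names LGALS9 with its copies LGALS9B and LGALS9C stood at -0.19 (adjusted p = 0.0645). LGALS9 was called lower with hybridization spike-in centring only (-0.20).

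NT5E (CD73), the surface enzyme that turns AMP into the immunosuppressive nucleoside adenosine, had the largest change of the 10. Its values were 0.31, 0.33 and 0.26 in knockdown and -0.32, -0.24 and -0.35 in control arrays. Every knockdown array was higher, with a gap of 0.50 between the groups. The change was 0.60 (SE 0.04, adjusted p = 1.83e-05 in limma), which placed NT5E at rank 473 of 18132 genes by rise. All 3 probe sets were of the high signal class and rose, by 0.85, 0.68 and 0.28, the last with an adjusted p of 0.00776 and not called with hybridization spike-ins (0.11). NT5E and NECTIN2 are the 2 ligands that changed by over 0.5, as 7.13% of all genes did with a call. In the rest of the purine and adenosine pathway 2 of 15 measured genes rose and 2 fell, with a median of 0.009, and with hybridization spike-ins 0 rose and 7 fell. The adenosine receptors ADORA1 and ADORA2B rose by 0.31 and 0.29 (SE 0.04 each), neither of which was called with hybridization spike-in centring (0.15 and 0.12). ADK, the kinase that removes adenosine inside the cell, fell (-0.31, SE 0.05), as did ENPP1 (-0.12, SE 0.04), whose adjusted p was 0.0487 and whose call was lost with the replicate block. Neither fall was called with unshared probe sets, where 2 of the 15 rose and 0 fell. With the robust variance model 2 rose and 1 fell. ENTPD1 (CD39), which supplies the AMP that NT5E uses, stood at 0.04 (adjusted p = 0.611).

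NT5E, NECTIN2 and ULBP2 were called higher under each scaling of the arrays, by 0.43, 0.37 and 0.16 with hybridization spike-ins and by 0.50, 0.44 and 0.23 with poly-A spike-ins. NT5E and NECTIN2 were also called in all other alternatives, and ULBP2 in all but that without shared or cross-hybridizing probe sets.

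**Figure D5:**
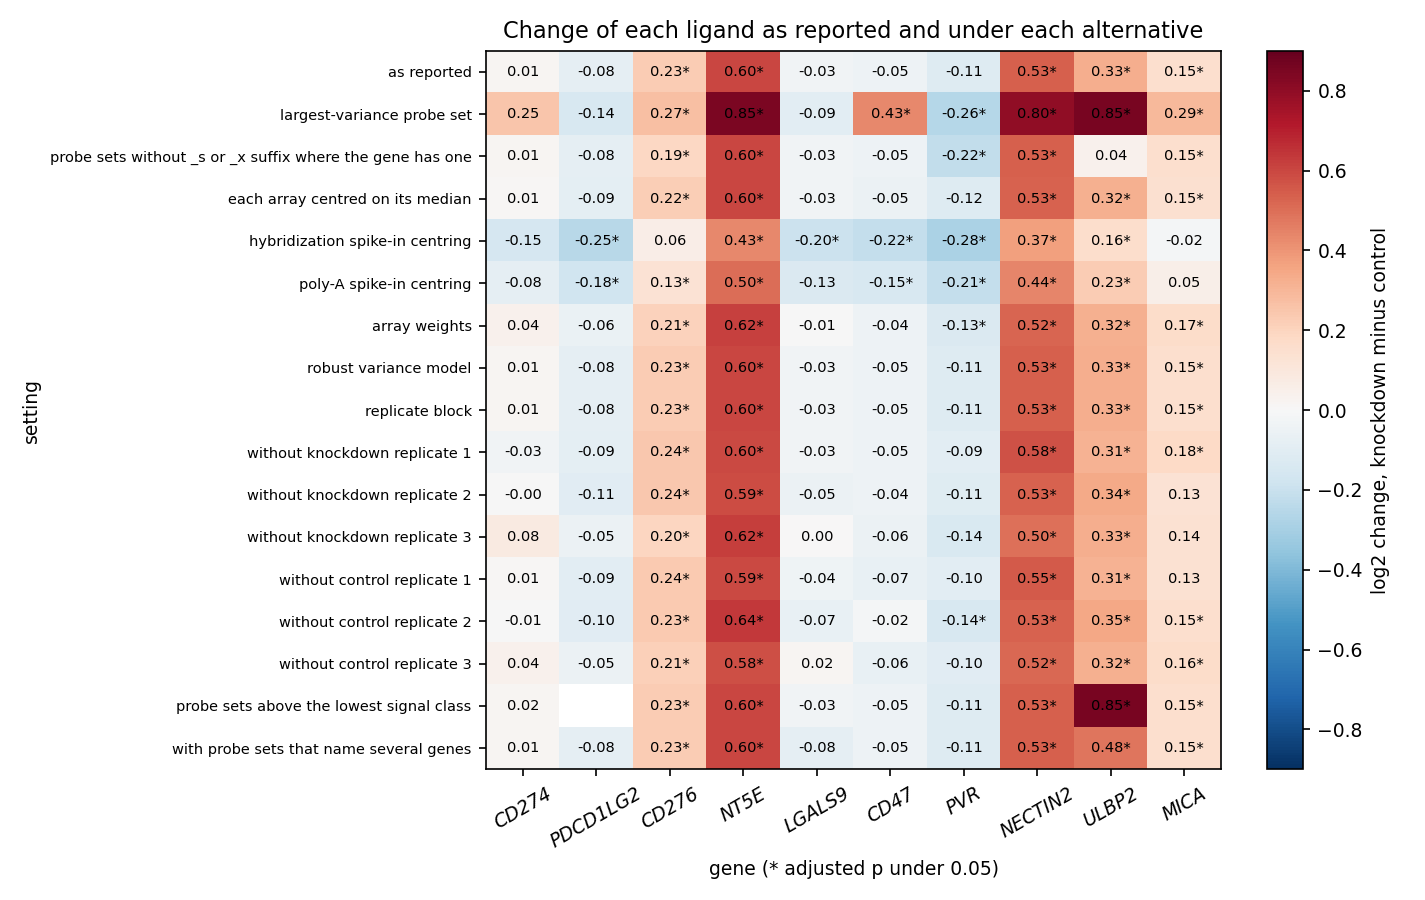
Log2 change (colour and printed value) of each ligand (columns) as reported and under 16 alternatives (rows), with a star where the adjusted p was under 0.05 and a blank where no probe set was left. NT5E and NECTIN2 carry a star in every row, CD274 in none, and PDCD1LG2, LGALS9, CD47 and PVR turn to called falls with hybridization spike-in centring.

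Markers of other cells were counted beside these values. Of 15 blood cell markers 1 rose, HBB (0.41, SE 0.07), and 0 fell (1 and 5 with hybridization spike-ins), and their mean lay between -0.004 and 0.04 in knockdown and between -0.04 and -0.005 in control arrays. None of the 15 had a probe set of the high signal class, and PTPRC, which all leukocytes carry, stood at 0.04 with its 6 probe sets in the low class. Of 18 receptors of lymphocytes and myeloid cells 3 rose and 2 fell, or 2 and 8 with hybridization spike-ins, of which CD96, named above, was the only one of the 18 with a probe set of the high class. CTLA4 rose by 0.31 (SE 0.04), and KLRC1 and LAG3 fell (-0.37 and -0.21). The only probe set of KLRC1 was of the low signal class, and without that class 3 of 13 receptors rose and 1 fell. Of 9 melanocyte markers 3 rose and 1 fell (1 and 2 with hybridization spike-ins), led by S100B (1.09, SE 0.04) and MITF (-0.72, SE 0.04), and 3 had a probe set of the high class. The part of these markers in the results was not tested, and the values hold no level from which their presence could be read.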

How the data were processed

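Biotin-labelled RNA was hybridized to Affymetrix arrays, per the labels' protocols. The values deposited by the authors are log2, and the submitters' processing notes name limma, RMA and affy without version, role or order. Base 2 is taken from RMA's output. Each probe set has a median of 0 over the arrays (largest absolute median 4.85e-07), a step no source used here describes, which removes its level. The number of arrays limits the precision.

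Array annotation gave 1 symbol for 44988 probe sets and several for 1832, which were left out of gene means. The groups were compared two-sided with limma 3.58.1 (lmFit, eBayes; R 4.3.3), without a filter, adjusted by Benjamini-Hochberg. The ligands and gene lists were chosen with earlier results of these data known. Named are the 10 ligands, UBE2S, the 2 largest called rises and falls of each list, and genes a description needed. Of the melanocyte markers only the largest rise is named beside the fall. Signal classes come from the rounding step of single-precision values (8 to 16 high, 4 to 8 middle, below 4 low before centring). They place some probe sets too high by chance, and do not show detection. Each class is given to a probe set and not to an array, so it does not give the level of either group. Alternatives were the largest-variance probe set, unshared probe sets, array medians, spike-in centring (18 hybridization or 24 poly-A probe sets), array weights, a robust variance model, the replicate block, each array left out, and the low class left out. Adding probe sets that name several genes was chosen after seeing the data. The fit was tested on simulated data. Arrays of 1 group differed with an SD of 0.125 to 0.144, so none was a copy. Same-numbered arrays of the groups did not deviate together and were not treated as pairs.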

Additional observations from a re-analysis of the deposited data

How the results depend on the processing

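The replicate block, where the fit takes the replicate number as a term, kept all calls of the 10 ligands, with 6684 genes called in place of 7266. Same-numbered arrays correlated by -0.03, -0.02 and -0.10 in their deviations from the group means. With hybridization spike-in centring 10960 genes were called. Over the 10 ligands, 133 of 159 values under alternatives kept their direction and their side of the threshold, 9 changed sign, and of those that kept their sign 11 passed newly and 6 no longer passed. CD274 changed sign with hybridization (-0.15) and poly-A spike-ins (-0.083) and without knockdown replicate 1, knockdown replicate 2 or control replicate 2, and it lay between -0.030 and 0.078 over all arrays left out in turn. LGALS9 lay between -0.068 and 0.017 in the same way. MICA turned to -0.018 with hybridization spike-ins and lost its call. CD47 turned to a called rise of 0.43 with the largest-variance probe set, which is the 1 of its 3 that rose. For the spike-ins the sign follows from their own rise in knockdown arrays, and what caused that rise was not tested. With 1 array left out, 4 to 6 of the 10 ligands were called and 6331 to 6637 genes. Signal over background is unknown, which limits PDCD1LG2 most, since no probe set was left without the low class.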

Other observations

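Proteins tied to the shedding of MICA and ULBP2 from the cell surface, proteases and the inhibitor TIMP3 among them, were listed beside the ligands. Of 7 measured genes of this list 3 rose and 3 fell (2 and 4 with hybridization spike-ins), with a median of -0.073. The sheddase ADAM10 rose by 0.52 (SE 0.04) and the membrane-bound metalloproteinase MMP14 by 0.40 (SE 0.04), and both were called with hybridization spike-in centring (0.36 and 0.23). The gelatinase MMP9 fell (-1.15, SE 0.04), as did TIMP3 (-0.50, SE 0.03). Whether shed ligand changed was not measured.

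Of 12 stromal and epithelial markers 2 rose and 2 fell (1 and 7 with hybridization spike-ins), with a median of -0.031. The proteoglycan LUM rose by 0.93 (SE 0.10) and VWF by 0.16 (SE 0.05), and VWF stood at -0.006 with hybridization spike-in centring. KRT18 fell (-0.29, SE 0.04), as did DCN (-0.23, SE 0.04). With unshared probe sets 1 of the 12 rose and 1 fell, and without the low signal class 2 of 10 rose and 1 fell. Among butyrophilins, relatives of the B7 family, BTN3A3 (0.31), BTN3A1 (0.22), BTN2A2 (0.22) and BTN2A1 (0.14) rose and BTN3A2 fell (-0.23), and none of the 4 rises was called with hybridization spike-in centring, where BTN2A1 stood at -0.03. These 5 were named after their values were seen.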
